A study of Mus musculus with 9 samples.

Results

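The miR-17-92 and miR-106b-25 clusters are groups of microRNA (miRNA) genes that lie so close together that each group is copied into a single precursor RNA. Of the 650 miRNAs on the array used here, 9 belong to these clusters and were taken by their exact names, without the star forms that mark the opposite strand of a hairpin. These are 6 of miR-17-92 (mmu-miR-17, mmu-miR-18a, mmu-miR-19a, mmu-miR-20a, mmu-miR-19b and mmu-miR-92a, where mmu stands for mouse and is left out from here on) and 3 of miR-106b-25 (mmu-miR-106b, mmu-miR-93 and mmu-miR-25). The question put to the data was whether co-members of a cluster moved together, within an array and across treatments. Total RNA came from primary hippocampal neurons of C57BL/6 mice, prepared on postnatal day 1 and kept for 10 days in vitro. In control cultures no drug was given, in NMDA cultures 20 µM N-methyl-D-aspartate was applied, and in bicuculline cultures 50 µM bicuculline, with 4 h of treatment per the labels. The study's own text gives other NMDA concentrations than the labels in several places, and its methods describe a short NMDA exposure followed by washing. Bath-applied NMDA reaches receptors inside and outside synapses, whereas bicuculline blocks GABA-A receptors and so raises synaptic activity in the network. Each group had 3 one-colour arrays from separate cell preparations, and the labels give the same strain, age and time in culture for all groups.

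A miRNA is cut from its hairpin by Drosha and Dicer, loaded into an Argonaute protein, and pairs with target mRNAs mainly through its seed, the stretch from base 2 to base 8. miR-17-92 is known as an oncogenic cluster that drives proliferation and is active in neural progenitors. miR-106b-25 is a paralogous cluster held in an intron of Mcm7, a gene for a subunit of the helicase that opens DNA for replication. Members of the clusters fall into 4 seed families, so that a miRNA can share its seed with members of the other cluster and not with its own neighbours.

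All 9 members matched RefSeq entries on GRCm38.p6, a later mouse build than the mm9 named in the array files. There miR-17-92 spanned chr14:115043671-115044506 on the plus strand in the order miR-17, miR-18a, miR-19a, miR-20a, miR-19b and miR-92a. miR-106b-25 spanned chr5:138165321-138165818 on the minus strand in the order miR-106b, miR-93 and miR-25, and all 3 hairpins lay inside Mcm7. The mature sequences are shown because the seeds (capitals) group the members differently from the clusters. Near-identical members also gave different readings, each from its own probes. miR-20b of the related X-linked miR-106a-363 cluster is added as the only measured relative.
miR-17: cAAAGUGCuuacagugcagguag
miR-20a: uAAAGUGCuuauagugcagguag
miR-106b: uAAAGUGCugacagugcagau
miR-93: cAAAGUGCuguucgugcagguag
miR-20b: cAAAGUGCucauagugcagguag
miR-18a: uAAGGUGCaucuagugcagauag
miR-19a: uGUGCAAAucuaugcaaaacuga
miR-19b: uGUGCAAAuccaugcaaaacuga
miR-92a: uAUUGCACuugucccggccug
miR-25: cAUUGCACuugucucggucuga

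The first group, with seed AAAGUGC, held miR-17 and miR-20a of one cluster and miR-106b and miR-93 of the other. miR-92a and miR-25 shared AUUGCAC across the clusters. miR-19a and miR-19b, with GUGCAAA, and miR-18a, with AAGGUGC, had no seed partner in miR-106b-25. Counted from the 5′ end, miR-17 and miR-20a differed at 2 positions (C1U and C12U), and miR-19a and miR-19b at 1 (U11C). miR-19b and miR-92a each have a second gene in the X-linked cluster with the same mature sequence, so their readings cannot be given to chromosome 14 alone.

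A probe was taken as well above background on an array when the scanner software marked 50% or more of its spots as such. Signals are given as a percentage of each array's scale, the 75th percentile over 265 probes above background on all arrays. By this rule 6 members were well above background on all 9 arrays (miR-20a, miR-19b and miR-92a of miR-17-92, and all 3 of miR-106b-25). The other 3, miR-17, miR-18a and miR-19a, were above it on 0 of 9. Over the whole array 156 of 650 miRNAs passed on all 9. Signals of different probes are not set against each other, since brightness also depends on the probe.

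For miR-17, the founding member of its seed family, the brighter of 2 probes read -1.15%, -0.08% and 0.15% of the scale in control, -0.51%, -0.23% and 0.33% in NMDA and -1.76%, -0.16% and -1.10% in bicuculline cultures. Negative control spots had array means between -0.35% and 0.95%, so miR-17 read at the level of empty probes. miR-20a, 2 bases different, was measured on every array, but by other probes, so the contrast is not one of level. miR-18a read between 1.64% and 3.10% and miR-19a between 0.25% and 2.49%. Both lay below the dimmest signal marked well above background, which was 4.39% to 8.40% depending on the array. In miR-18a the brighter probe exceeded the negative controls by more than 2 of their SDs on 2 arrays, and in miR-19a on 0. No change was computed for these 3 members, and a low level is not shown to be absence.

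**Figure D1:**
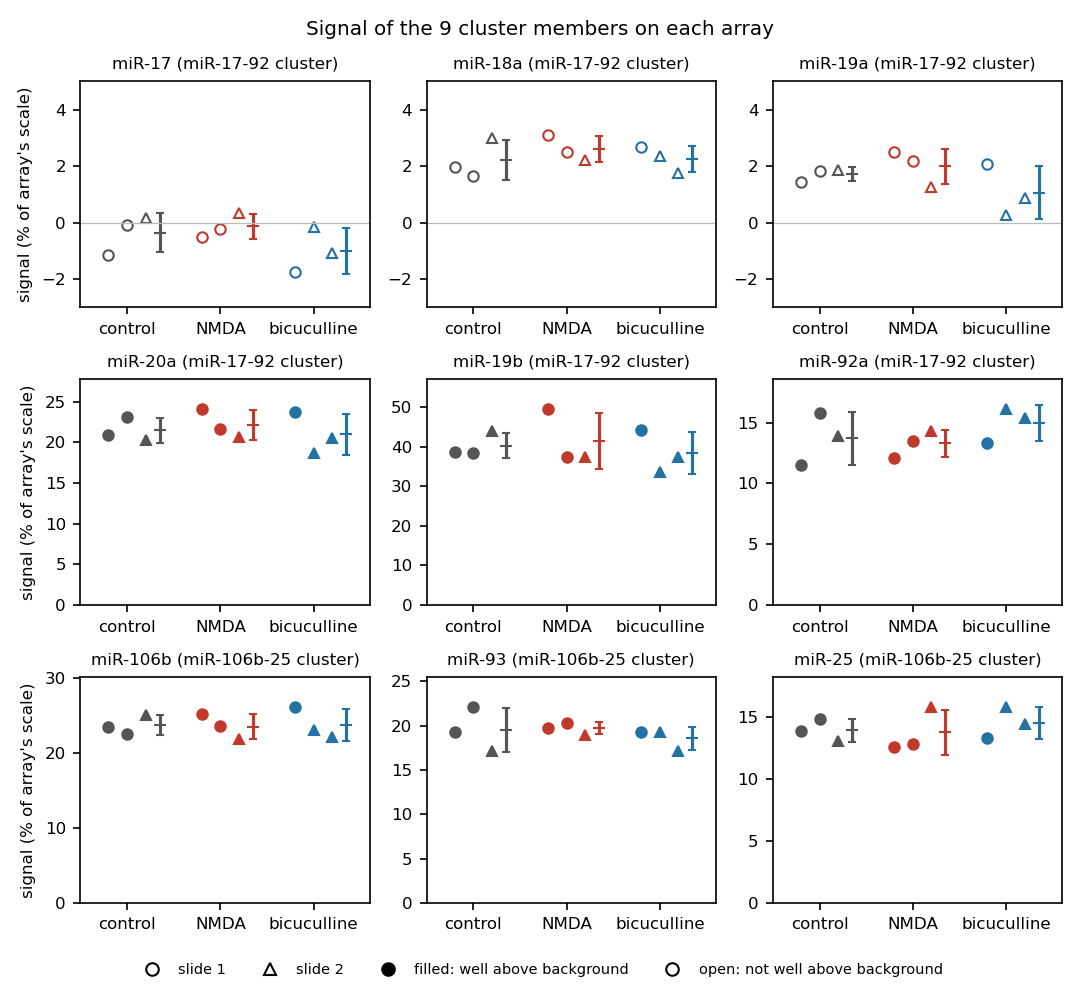
Signal of each of the 9 members on the 9 arrays, in percent of the array's scale, by group (grey control, red NMDA, blue bicuculline) and slide (circles slide 1, triangles slide 2), with mean ± SD (n = 3) to the right of each group. Filled points were well above background. The upper 3 members have open points only, and in the other 6 the groups overlap.

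No measured member passed the test with either drug. The largest difference among the 18 member comparisons was 12.4%, for miR-92a between NMDA and bicuculline, and 0 of 6 members had groups that did not overlap in any of the 3 comparisons, against 14.9% of all miRNAs tested for NMDA against control, 3.11% for bicuculline against control and 13.3% for NMDA against bicuculline. limma called 0 of 6 members with NMDA against control, where 15 of 181 tested miRNAs (8.29%) were called, all higher. It called 0 of 6 with bicuculline against control, where 1 of 161 (0.621%) was called, and 0 of 6 with NMDA against bicuculline, where 16 of 181 (8.84%) were called. At an unadjusted p under 0.05 limma also gave 0 members in each comparison, where it gave 11.0%, 1.24% and 13.3% of all miRNAs in that order. With the replicate number as a block it gave 1 member, for NMDA against bicuculline, where 40 of 181 miRNAs passed. The methods' t-test on the same values gave 0 members before and after adjustment. The NMDA shares include miRNAs that passed the filter through NMDA arrays alone, such as miR-690. Among the 156 miRNAs above background on all 9 arrays, as all 6 members were, limma without a block called 3, 0 and 3. At an unadjusted p under 0.05 limma gave 8, 1 and 11 of these 156. Read against such shares, 0 of 6 is not a result particular to the members. In bulk RNA of this kind, fewer cells of a type and less RNA per cell cannot be told apart.

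Among the measured members of miR-17-92, miR-19b comes from the hairpin next to that of miR-92a. It read 38.6%, 38.4% and 43.9% of the scale in control, 49.6%, 37.5% and 37.3% in NMDA and 44.2%, 33.6% and 37.4% in bicuculline cultures. NMDA replicate 1 was the highest and bicuculline replicate 2 the lowest of the 9 arrays, while the other NMDA arrays lay below all controls. The group means were 40.3 ± 3.13, 41.5 ± 7.05 and 38.4 ± 5.40% (SD, n = 3). On the log2 scale miR-19b differed by 0.03 (95% confidence interval -0.27 to 0.34) between NMDA and control and by -0.07 (-0.36 to 0.21) between bicuculline and control.

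miR-20a, which shares the miR-17 seed and is known to repress E2F transcription factors, read 20.9%, 23.2% and 20.3% in control, 24.1%, 21.6% and 20.7% in NMDA and 23.7%, 18.7% and 20.5% in bicuculline cultures. Each treated group held an array above the highest control, and the low value was again bicuculline replicate 2. Its log2 difference was 0.04 (-0.18 to 0.27) for NMDA and -0.04 (-0.30 to 0.22) for bicuculline, both against control.

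miR-92a, the last hairpin of the cluster, read 11.5%, 15.8% and 13.9% in control, 12.1%, 13.5% and 14.3% in NMDA and 13.3%, 16.1% and 15.4% in bicuculline cultures. Control arrays alone ranged nearly as widely as all 9, from 11.5% to 15.8%. The log2 difference from control was -0.04 (-0.35 to 0.27) with NMDA and 0.13 (-0.18 to 0.45) with bicuculline. Between NMDA and bicuculline it was -0.17 (-0.42 to 0.09), with the smallest p of any member by limma across all miRNAs tested (adjusted p = 0.781).

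In the miR-106b-25 cluster, miR-106b was the steadiest member. It read 23.5%, 22.6% and 25.1% in control, 25.1%, 23.6% and 21.8% in NMDA and 26.2%, 23.0% and 22.1% in bicuculline cultures, and its highest array was 1.20 times its lowest. The log2 difference from control was -0.01 (-0.22 to 0.19) for NMDA and 0.00 (-0.23 to 0.23) for bicuculline. The group means, 23.7 ± 1.29, 23.5 ± 1.66 and 23.8 ± 2.16%, lay within 1 SD of each other.

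miR-93, which carries the same seed as miR-106b, read 19.2%, 22.2% and 17.2% in control, 19.8%, 20.3% and 19.0% in NMDA and 19.3%, 19.3% and 17.1% in bicuculline cultures. The 3 NMDA arrays lay inside the range of the controls. Its log2 difference from control was 0.02 (-0.23 to 0.27) with NMDA and -0.07 (-0.33 to 0.20) with bicuculline. miR-25, the seed partner of miR-92a, read 13.8%, 14.8% and 13.0% in control, 12.6%, 12.8% and 15.8% in NMDA and 13.3%, 15.8% and 14.4% in bicuculline cultures. Its NMDA arrays alone spanned nearly the whole range of the 9. The difference was -0.02 (-0.28 to 0.24) for NMDA and 0.06 (-0.18 to 0.29) for bicuculline.

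The intervals give the range of each estimate. Over the 6 members they reached at most from 0.787 to 1.26 times control for NMDA, from 0.782 to 1.36 times control for bicuculline, and from 0.746 to 1.38 for NMDA over bicuculline. These are the widest bounds over the members, and a change beyond them lay outside every member's interval. The median log2 change of the 6 members was 0.00, -0.02 and 0.03 in the comparisons in that order, beside -0.01, -0.02 and 0.00 over all miRNAs tested.

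**Figure D2:**
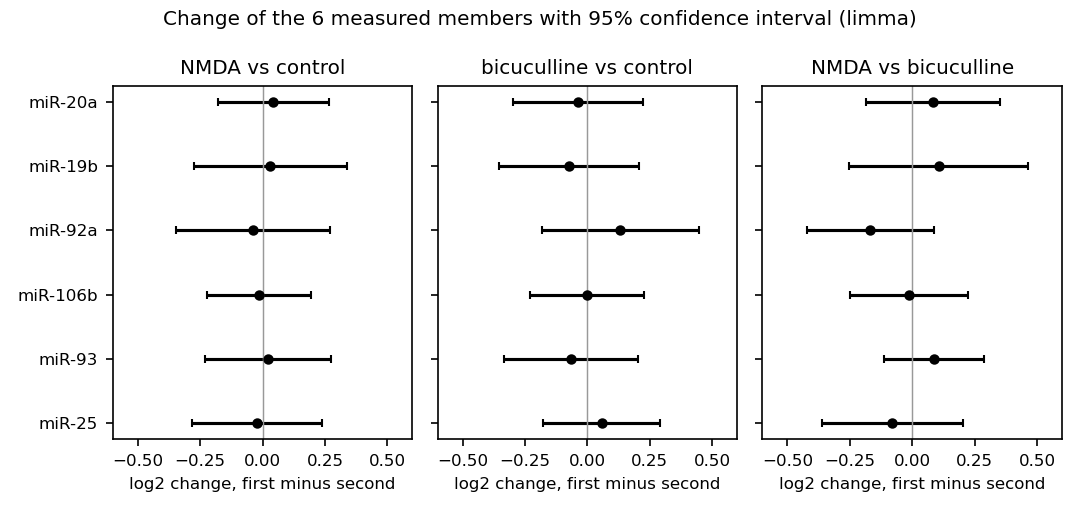
Log2 change of each of the 6 measured members (first group minus second) with its 95% confidence interval from limma, in the 3 comparisons (3 arrays a group). Every interval includes 0.

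The arrays lay on 2 slides, read with software versions 10.7.1.1 and 10.7.3.1, and slide 1 held 5 arrays (control 1 and 2, NMDA 1 and 2, bicuculline 1). Because the slides were not balanced over the groups, each comparison was repeated within them. Within slide 1 the members' NMDA-minus-control differences ran from -0.17 to 0.16, and within slide 2, with 1 array a group, from -0.23 to 0.28. For bicuculline against control they ran from -0.11 to 0.20 within slide 1 and from -0.31 to 0.21 within slide 2, and for NMDA against bicuculline from -0.10 to 0.06 and from -0.14 to 0.08. miR-25 was lower with NMDA within slide 1 (-0.17) and higher within slide 2 (0.28), and miR-19b ran the other way (0.16 and -0.23). With slide as a block limma called 0 of 6 members in each comparison (smallest adjusted p 0.911, 0.997 and 0.949).

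Cluster means differed little between groups. The mean log2 signal of the measured miR-17-92 members differed by 0.01 between NMDA and control, 0.01 between bicuculline and control and 0.01 between NMDA and bicuculline. For miR-106b-25 these differences were -0.01, 0.00 and 0.00. The distance between the cluster means was 0.29 ± 0.10 in control, 0.31 ± 0.08 in NMDA and 0.30 ± 0.11 in bicuculline cultures (log2, SD, n = 3). That distance has no meaning as a level, as the probes differ, but its change between groups was smaller than its spread.

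Within an array each member was then set against the mean of the other measured members of its cluster. The largest shift was in miR-92a, whose log2 ratio to miR-19b and miR-20a was 0.19 higher in bicuculline than in control cultures and 0.26 lower in NMDA than in bicuculline cultures. Its SD among arrays was 0.20 in control, 0.29 in NMDA and 0.33 in bicuculline cultures. Within the slides described above these shifts were not alike: bicuculline minus control was -0.17 on slide 1 and 0.37 on slide 2, and NMDA minus bicuculline -0.01 and -0.22. The other ratios shifted less, by at most 0.15 for miR-19b and 0.13 for miR-93, both between NMDA and bicuculline. The group means of the miR-106b ratio differed by at most 0.02, with SDs of 0.22, 0.17 and 0.16 in control, NMDA and bicuculline cultures, but this was a mean of opposite moves. NMDA minus control was 0.19 within slide 1 and -0.42 within slide 2, and bicuculline minus control 0.29 and -0.30. No test was made of these ratios. Of them, only the shift of miR-93 between NMDA and bicuculline exceeded the SD of both groups (0.10 and 0.06), and it was 0.14 within slide 1 and 0.05 within slide 2.

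**Figure D3:**
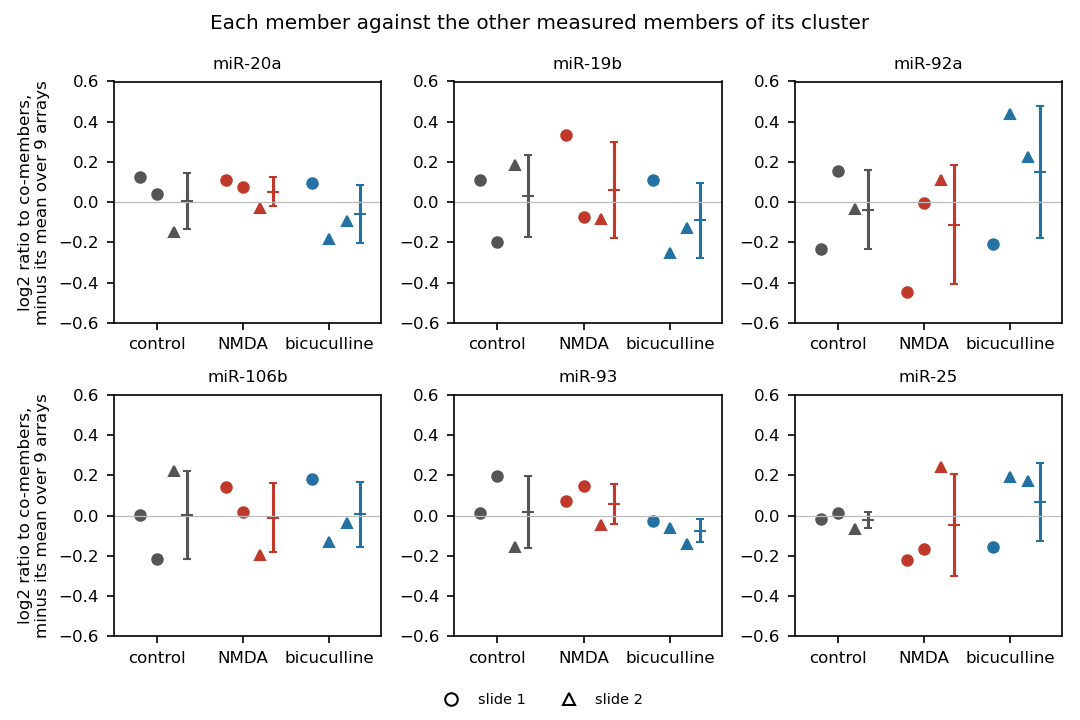
Log2 ratio of each measured member to the mean of its measured co-members on each array, minus that ratio's mean over the 9 arrays, by group (grey control, red NMDA, blue bicuculline) and slide (circles slide 1, triangles slide 2), with mean ± SD (n = 3) beside each group. miR-92a and miR-25 lie mostly higher on slide 2, miR-20a and miR-93 lower.

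The ratios of co-members varied about as much as those of miRNAs in general. For a pair of miRNAs, the SD of their log2 ratio over the 9 arrays is small where both move alike. That SD is also small where each miRNA varies little by itself. Its median was 0.187 over all 12090 pairs of the 156 measured miRNAs and 0.202 over the 15 member pairs. The pairs were not matched for signal, and by brightness the members ranked from 83 (miR-19b) to 142 (miR-92a) of the 156. The 6 pairs within a cluster had a median of 0.184 and the 9 pairs between clusters 0.202. Split by seed instead, the 4 pairs of the same seed had a median of 0.123 (0.110 to 0.152) and the 11 pairs of different seeds 0.214 (0.116 to 0.303). The 4 same-seed pairs were also alike beyond the seed. They differed at 3 to 5 positions over the whole sequence, the 11 others at 13 to 19. A split by seed was thus also a split by whole sequence, and the 2 were not separated. Pearson's r over the 9 arrays was 0.48, 0.49, 0.67 and -0.06 in the 4 same-seed pairs. In the 11 pairs of different seeds it ran from -0.77 to 0.77. All these pairs share members and arrays, and the values are a description.

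The closest pair was miR-20a and miR-106b (0.110), from different clusters and with the same seed. miR-92a and miR-25, also of different clusters and 1 seed, had 0.126. The widest pair lay inside a cluster, miR-19b and miR-92a (0.303), followed by miR-19b and miR-25 (0.279). Singly, miR-19b and miR-92a also varied most of the measured members (SD 0.171 and 0.168 over the 9 arrays). For miR-20a and miR-106b these SDs were 0.120 and 0.091. Within the single transcript of miR-106b-25, the ratio of miR-106b to miR-25 had an SD of 0.205.

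**Figure D4:**
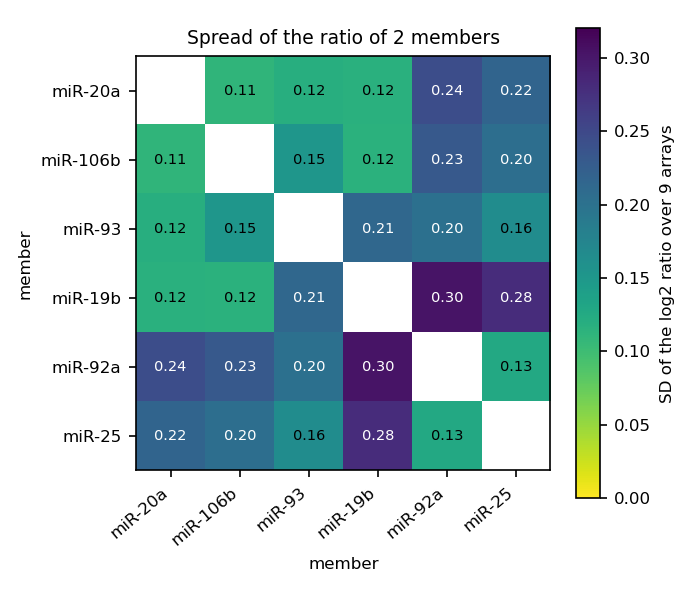
SD over the 9 arrays of the log2 ratio of each pair of measured members, ordered by seed (miR-20a, miR-106b and miR-93 share one, miR-92a and miR-25 another). Darker cells mark pairs whose ratio varied more. Among the pairs of miR-92a, and among those of miR-25, the ratio of these 2 to each other varied least.

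The slides ran along part of this division. They set miR-92a and miR-25 apart from the rest, but not miR-19b from miR-20a, miR-93 and miR-106b. miR-20a, miR-93, miR-19b and miR-106b read higher on slide 1 than on slide 2, by 0.18, 0.15, 0.13 and 0.07 on the log2 scale, whereas miR-25 and miR-92a read lower, by -0.13 and -0.18. Within slides the median SD was 0.129 for pairs of the same seed and 0.166 for pairs of different seeds, 0.161 within clusters and 0.132 between them, and 0.148 over all pairs. The closest pair was then miR-93 and miR-25 of 1 cluster (0.073). The part of the slide in the seed pattern was not separated further.

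The miRNAs most like each cluster were sought by Pearson's r over the 9 arrays, given as a description without a test, since slide and array are shared by all points. Outside the clusters and their relatives, the mean of miR-17-92 ran closest to miR-377 (r = 0.84), miR-130a (0.77), miR-433* (0.74), miR-154* (0.70) and miR-29b (0.65). For miR-106b-25 they were miR-532-5p (0.84), miR-532-3p (0.83), miR-30a (0.75), miR-365 (0.75) and miR-411 (0.74). Taken singly, no member had a co-member of its own cluster as its closest miRNA among the 156. Each cluster had only 3 measured members among these, so this says little about whether co-members moved together. Every r given here was picked as among the highest of many. miR-20a ran with miR-20b (0.89), miR-19b and miR-106b with miR-377 (0.89 and 0.81), miR-92a with the neuronal miR-129-3p (0.91), miR-93 with miR-30b (0.91) and miR-25 with miR-181b (0.79).

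Of the opposite strands of the hairpins, 7 of 9 were on the array and 0 were well above background on any array. miR-17* came nearest, at 2.97% to 4.07% of the scale and exceeded the negative controls by more than 2 of their SDs on 7 of 9 arrays. In the miR-106a-363 cluster, miR-20b was measured on all 9 arrays and miR-18b and miR-363 on 0. miR-20b read 8.28% to 11.8% and differed from control by 0.04 (-0.24 to 0.32) with NMDA and -0.06 (-0.41 to 0.29) with bicuculline on the log2 scale. The other carriers of the miR-92a seed, miR-32 and miR-367, and miR-92b, which was added after values were seen, were above background on 0 arrays. miR-106a, miR-19b* and miR-25* were not analysed here.

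All 6 neuronal markers (miR-124, miR-9, miR-128, miR-137, miR-138 and miR-129-3p) were measured on all 9 arrays, with a summed signal of 3901% to 3969% of the scale in control, 3673% to 3903% in NMDA and 3675% to 4009.7% in bicuculline cultures. All 5 markers of microglia and blood cells were not well above background on any array. Of 2 oligodendrocyte markers miR-338-3p was measured on all arrays and miR-219 on 0, of 4 vascular and mesenchymal markers miR-126-3p on 5 arrays and miR-199a-3p on 1, and of 3 muscle markers miR-1 on all. Of the 20 markers 8 were tested (6 neuronal, miR-338-3p and miR-1), and limma called 0 of them in each comparison, also at an unadjusted p under 0.05. The microglial and vascular markers were not tested.

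The scanner software also gives each miRNA a total signal, and for 3 members this total held the signal of other miRNAs on slide 1. For miR-92a it was 6166 to 7373 intensity units on the 5 arrays of slide 1 and 42.6 to 80.4 on the 4 of slide 2. For miR-93 it was 6237 to 7448 on slide 1 and 47.3 to 77.3 on slide 2. The members' own brightest probes had no such step, and neither did the signals used above. On control replicate 1 the total of miR-92a exceeded its own probe by the total of miR-9*, the next name before it in alphabetical order with a total, to within 0.01 units. The total of miR-93 in turn exceeded its own probe by the total of miR-92a, and that of miR-25 by the total of miR-24.

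The same held for miR-92a and miR-93 on all 5 arrays of slide 1, and for miR-25 on 4 of them, the exception being NMDA replicate 2, where its total of 73.2 was that of its own probes. On slide 1, 51 to 59 miRNAs an array had totals that included another's, and on slide 2 none did. The totals of miR-106b, miR-19b and miR-20a were sums of their own probes on every array. Since slide and software version coincide here, they cannot be told apart. Read from these totals, the mean log2 change of the miR-106b-25 members between bicuculline and control would be -0.91 in place of 0.00.

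**Figure D5:**
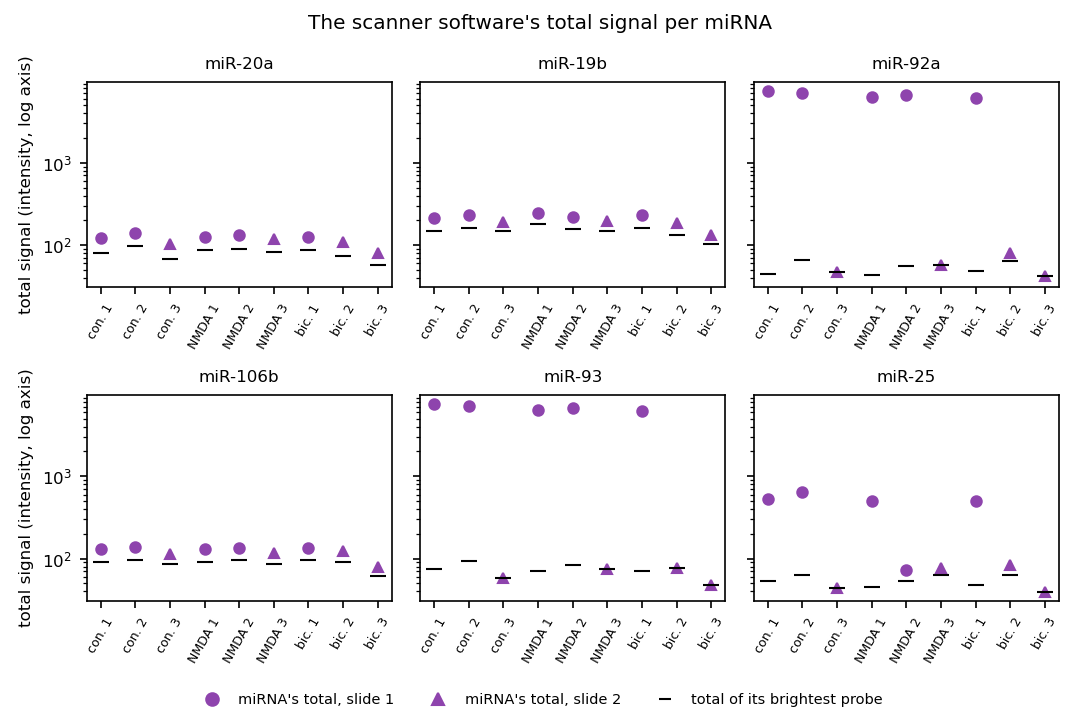
Total signal of each measured member as the scanner software gives it (purple, circles slide 1, triangles slide 2) and the total of its own brightest probe (black bars), in intensity units on a log axis, for the 9 arrays. miR-92a and miR-93 on slide 1, and miR-25 on 4 of its arrays, stand far above their own probes.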

How the data were processed

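Total RNA of 9 cultures was hybridized to one-colour Agilent mouse miRNA arrays (Release 12.0), 3 a group. What the authors deposited is the Feature Extraction output of each array, in which spot intensity had its background subtracted and spatial trend removed but was not scaled across arrays, plus processed log2 values whose steps are not given in the sources used here. The column medians were 7.06 to 7.08. Over 156 miRNAs these columns ran with the log2 signals used here (r = 0.966 to 0.969) with slopes of 0.59 to 0.66, so differences in them are compressed. Their centring is unknown.

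After removal of outlier and control spots, a probe was the mean of its remaining spots. No spot was saturated. The scale of an array was its 75th percentile over 265 probes (those above background on every array), lower signals were raised to 7.94% of it, log2 was taken, and the brightest probe stood for its miRNA. A miRNA above background on every array of 1 or more groups was tested with limma 3.58.1 in R 4.3.3 on the groups compared, two-sided, without covariates, with Benjamini-Hochberg adjustment over all miRNAs tested and a threshold of 0.05. Tests were thus made on normalized intensity, and precision is limited by how many arrays there were. Cluster means and ratios are differences of log2 signals without a test.

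The limma fit was tested on simulated data with known changes. Those changes were larger than any member change reported here, and the simulated arrays shared no slide. That test therefore does not bear on how well changes as small as the members' would be found. The members, lists and relatives were chosen with earlier results of these data known. Named were the 9 members, their opposite strands, the miR-106a-363 cluster, miRNAs of the same seed, and by rule the 5 miRNAs most correlated with each cluster mean and each member's closest miRNA. Sequences and gene order are those of RefSeq on GRCm38.p6, computed with Python 3.11.15. Alternatives were other scalings, summaries, floors, filters and fits, the authors' table, normexp with an offset of 50, blocks for replicate number and slide, and omission of each array.

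Replicate numbers were checked from deviations from the group means over 156 miRNAs. Arrays of the same number correlated at 0.36, 0.76 and 0.63 for NMDA and control, all on 1 slide per pair, at 0.59, 0.08 and 0.72 for bicuculline and control, and at 0.62, -0.03 and 0.72 for NMDA and bicuculline. The numbers thus met the rule for pairs (every r above 0.1) for NMDA and control only. The values reported come from the fit without this block, which was run as an alternative for all comparisons. Pairs of arrays on 1 slide had a median r of 0.63 with the same number (7 pairs) and 0.19 with different numbers (6 pairs). Across slides these medians were 0.03 (2 pairs) and -0.46 (12 pairs). The values of 0.08 and -0.03 came from pairs across slides, so the rule did not judge number apart from slide.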

Additional observations from a re-analysis of the deposited data

How the results depend on the processing

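The count of members called stayed at 0 under every alternative but 1. Scaled to the 75th percentile of all probes, 4 members (miR-106b, miR-25, miR-92a and miR-93) were lower in NMDA than in bicuculline cultures, with 143 of 181 miRNAs called. There the median of all miRNAs stood at -0.47, and relative to it the members lay between -0.17 and 0.10. Over all alternatives but leaving out arrays, 3 to 26 miRNAs were called for NMDA against control, 0 to 2 for bicuculline against control and 3 to 143 for NMDA against bicuculline. The sign of an uncalled member change differed in 79 of 378 alternative values.

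The cluster means moved with the scaling. For NMDA against control, miR-17-92 and miR-106b-25 stood at -0.41 and -0.43 scaled to all probes (median of all miRNAs -0.43) and -0.20 and -0.24 after quantile normalization (median -0.14), and miR-106b-25 at 0.0564 without scaling. For NMDA against bicuculline they were -0.47 and -0.48 scaled to all probes (median -0.47), -0.0818 and -0.0901 scaled to the median (median of all miRNAs -0.09), -0.24 and -0.27 after quantile normalization (median -0.13) and 0.22 and 0.21 without scaling (median 0.20). After quantile normalization 3 of 6 members had an unadjusted limma p under 0.05 for NMDA against control, as had 57 of 181 miRNAs, and 3 of 6 and 61 of 181 for NMDA against bicuculline. Scaled to all probes these were 2 members and 96 miRNAs for NMDA against control and 5 members and 148 miRNAs for NMDA against bicuculline. For bicuculline against control they were -0.14 and -0.15 without scaling (median -0.17). Read from the total gene signal, miR-106b-25 was at -0.36 and -0.91 for NMDA and bicuculline against control and at 0.55 for NMDA against bicuculline, and miR-17-92 at -0.63 and 0.56 in the last pair of comparisons. The largest change of a within-array ratio was then 0.82, 2.05 and 2.17, from totals that include other miRNAs.

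With the replicate number as a block limma called 0 of 6 members in each comparison. The smallest member p with this replicate block was 0.585 (adjusted 0.851) for NMDA against control, 0.154 (adjusted 0.995) for bicuculline against control and 0.0432 (adjusted 0.197) for NMDA against bicuculline. Leaving out each array in turn, limma called 0 members in all, and the cluster means ran from -0.05 to 0.06. Leaving out arrays moved the largest ratio change to between 0.10 and 0.19, 0.10 and 0.37, and 0.12 and 0.44 in the 3 comparisons. The precision rests on 3 arrays a group, and miR-17, miR-18a and miR-19a, not well above background, gave no change to test.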

Other observations

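Each measured member had 2 probes, and the dimmer one was read separately. For miR-19b it was well above background on all 9 arrays, at 11.2% to 19.1% of the scale, and ran with the brighter one at r = 0.64 over the arrays. For miR-20a it read 8.25% to 11.0% (r = 0.82), with log2 differences of -0.01 for NMDA and -0.16 for bicuculline against control, beside 0.04 and -0.04 from the brighter probe. The dimmer probe of miR-106b passed on 8 arrays, that of miR-25 on 1, and those of miR-92a and miR-93 on 0. Their values are given as a description.

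In the authors' processed table, the 6 measured members lay between 7.44 (miR-92a) and 8.22 (miR-19b). The members not well above background lay between 6.93 and 7.06 for miR-17, 7.12 and 7.21 for miR-18a, and 7.08 and 7.18 for miR-19a, around the column medians. The step in the total signals of miR-92a and miR-93 between slides was not in this table, where miR-92a read 7.44 to 7.51 on slide 1 and 7.50 to 7.64 on slide 2.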
